A study of Mus musculus with 22 samples.

Results

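The 8 genes described here encode the core of sarcoplasmic reticulum calcium handling: Ryr2, Atp2a2, Pln, Casq2, Slc8a1, Hrc, Jph2 and Trdn. They were chosen by symbol, as the rows of both gene count tables that carry one of these names, and all 8 were found among 48709 gene rows. RNA-seq was performed on heart ventricles of E13.5 C57/Bl6 mouse embryos in 2 experiments. Each genotype had 3 libraries, which makes 18 in total. Lin9 encodes a subunit of the MuvB complexes, which control cell cycle genes, and Sav1 encodes Salvador, a scaffold of the Hippo kinases that restrain YAP. All embryos of the 6 groups carried Nkx2.5-Cre, which recombines floxed alleles in cardiac progenitors, so that cells outside this lineage kept intact alleles. The first experiment held 3 LIN9 wt and 3 LIN9 KO libraries with wild-type Sav1. The second held 4 groups, namely controls (LIN9 wt, Sav1 wt), LIN9 KO (Sav1 wt), Sav1 KO (LIN9 wt) and the double KO of LIN9 and Sav1. The labels call the LIN9 wt libraries wild-type, while the study describes its controls as carrying a floxed Lin9 allele beside a wild-type one. Nothing in the labels says whether the libraries of a group came from separate embryos or litters. The study describes the LIN9 KO experiments as a pair of biological replicates, each in triplicate, so p-values measure only the spread between libraries of an experiment, which may be technical.

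During each heartbeat, calcium that enters through the plasma membrane opens the ryanodine receptor RYR2 in the sarcoplasmic reticulum, and the calcium released there drives contraction. Calsequestrin 2 (Casq2) and the histidine-rich calcium-binding protein (Hrc) hold calcium in the lumen, and triadin (Trdn) ties calsequestrin to the release channel. Junctophilin 2 (Jph2) holds the reticulum close to the plasma membrane. Relaxation follows when the pump SERCA2 (Atp2a2), restrained by phospholamban (Pln), returns calcium to the store and the sodium-calcium exchanger NCX1 (Slc8a1) removes the rest across the plasma membrane. In the embryonic ventricle this machinery is already in use while the cardiomyocytes still divide.

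The promoters of 3 of these genes are printed because the data place them differently. Hrc rose in LIN9 KO ventricles of the second experiment, whereas Jph2 and Slc8a1 fell in LIN9 KO ventricles of both. The sequences are from RefSeq on GRCm38.p6, from 250 bases before to 50 bases after the start site, written 5′ to 3′ on the strand of the gene. Capitals mark every match on either strand to any of 7 motifs. The cell cycle homology region, a DNA element that MuvB contacts, was searched as TTTGAA and also in a variant form as TTTAAA. The E-box of basic helix-loop-helix factors was searched as CANNTG, and the element of the TEAD factors that bring YAP to DNA as GGAATG. The element of cardiac and blood GATA factors was searched as TGATAA, and the classical TATA box of core promoters as TATAAA. The GC box of Sp factors was searched as GGGCGG, and no match in the printed windows overlapped another. The promoter of Hrc lies at chr7:45335019-45335318 on the plus strand, that of Jph2 at chr2:163397944-163398243 on the minus strand and that of Slc8a1 at chr17:81738338-81738637 on the minus strand.
Hrc: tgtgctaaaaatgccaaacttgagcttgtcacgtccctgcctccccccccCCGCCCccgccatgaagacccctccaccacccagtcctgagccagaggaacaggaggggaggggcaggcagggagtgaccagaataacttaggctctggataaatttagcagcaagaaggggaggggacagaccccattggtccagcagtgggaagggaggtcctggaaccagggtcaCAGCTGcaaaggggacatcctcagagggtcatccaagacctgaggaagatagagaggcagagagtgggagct
Jph2: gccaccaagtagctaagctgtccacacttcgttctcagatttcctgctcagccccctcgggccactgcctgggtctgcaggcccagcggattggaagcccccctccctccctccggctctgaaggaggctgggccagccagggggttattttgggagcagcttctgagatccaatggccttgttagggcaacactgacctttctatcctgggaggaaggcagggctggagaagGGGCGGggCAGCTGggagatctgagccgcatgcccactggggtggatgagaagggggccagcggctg
Slc8a1: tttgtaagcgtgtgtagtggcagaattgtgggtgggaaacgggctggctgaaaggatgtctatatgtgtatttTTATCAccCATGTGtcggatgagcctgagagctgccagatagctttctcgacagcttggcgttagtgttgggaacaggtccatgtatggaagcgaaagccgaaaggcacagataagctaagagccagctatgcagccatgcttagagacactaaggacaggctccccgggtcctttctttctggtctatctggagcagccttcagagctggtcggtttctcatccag
The Hrc and the Jph2 window each held 1 E-box and 1 GC box, and the Slc8a1 window held 1 E-box and 1 GATA match. None of the 3 held either form of the cell cycle homology region or a TEAD match. Of 32851 promoters in the table, 17.89% held TTTGAA, the variant form occurred in 13.16%, and a TEAD match in 14.66%. An E-box occurred in 72.31%, a GC box in 35.66%, a TATA box in 13.62% and a GATA match in 9.05% of them. Of the 8 genes, 6 had a promoter in this table, and Atp2a2 and Trdn did not. Among the other 3, Casq2 held 1 TTTAAA match and 2 E-boxes, Ryr2 held 2 E-boxes and 2 GC boxes, and Pln held 1 TTTGAA, 1 GATA, 1 TATA and 2 E-box matches. These matches are a description of letters in the window and carry no statement on binding.

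The counts are whole reads per gene, normalised here to CPM, that is counts relative to the size of the library, within each experiment. Library totals of the first experiment ranged from 9485599 to 9615274 counts, and those of the second from 2770741 to 2999877. Lin9 itself was at 25.6 ± 4.19 CPM (SD, n = 3) in LIN9 wt and 20.6 ± 1.21 CPM in LIN9 KO ventricles of the first experiment. In the second it was at 26.8 ± 3.23 in controls, 15.5 ± 2.38 in LIN9 KO, 25.4 ± 6.11 in Sav1 KO and 22.7 ± 3.85 CPM in double KO ventricles. Sav1 was at 57.5 ± 3.88 in controls, 49.7 ± 2.29 in LIN9 KO, 40.7 ± 3.98 in Sav1 KO and 42.3 ± 1.73 CPM in double KO ventricles. Both floxed alleles lose a single exon, and reads from the remaining exons and from cells without recombination still count, so these levels do not check the labels.

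Phospholamban could not be measured. Pln was at 0 counts in all 18 libraries, and its 2759 exonic bases at chr10:53337667-53345987 on the plus strand lie 100% under Cep85l, a gene on the opposite strand. Cep85l itself was counted at means of 35.9 to 44.5 CPM over the 6 groups. Of 1238 protein-coding genes that lie wholly within another gene, 1156 (93.4%) were at 0 in every library, against 2913 of 20457 (14.2%) of the others. The same holds for 2 sarcomere genes, Actc1 and Tnnc1, which were at 0 with 100% of their exonic bases under other genes. The zero therefore says nothing about the level of Pln, and 7 of the 8 genes could be tested. Slc8a1 shares 17.2% of its exonic bases with other annotated genes, most of which are not in the count tables, and the other 6 share at most 1.48%.

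All 7 measured genes were well covered. In control ventricles of the second experiment, CPM per kilobase of exonic sequence not shared with another counted gene was highest for the pump gene Atp2a2, at 266 ± 12.4 (SD, n = 3). Casq2 at 115 ± 6.18 and Jph2 at 106 ± 7.22 followed, and Casq2 was above Jph2 in each of the 3 libraries, with means further apart than 1 SD of either. Slc8a1 at 40.5 ± 7.76 and Hrc at 40.4 ± 3.32 could not be separated. Trdn at 22.5 ± 13.6 and Ryr2 at 15.2 ± 2.11 were lowest, and the spread of Trdn spans the level of Ryr2. In LIN9 KO ventricles of the same experiment Hrc (75.6 ± 13.4) and Jph2 (65.6 ± 6.70) could not be separated, and their order was reversed in replicate 3. In double KO ventricles they lay at 70.6 ± 11.2 and 58.2 ± 5.98, with a difference of about 1 SD of Hrc, whereas Jph2 stood well above Hrc in controls and in Sav1 KO. Casq2 at 147 ± 18.03 lay within the spread of Atp2a2 at 153 ± 32.8 per kilobase in double KO ventricles. Counts merge all transcripts of a gene, so the muscle and the general form of SERCA2 are not told apart, and triadin exons used only in skeletal muscle lower the value of Trdn per kilobase.

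**Figure D1:**
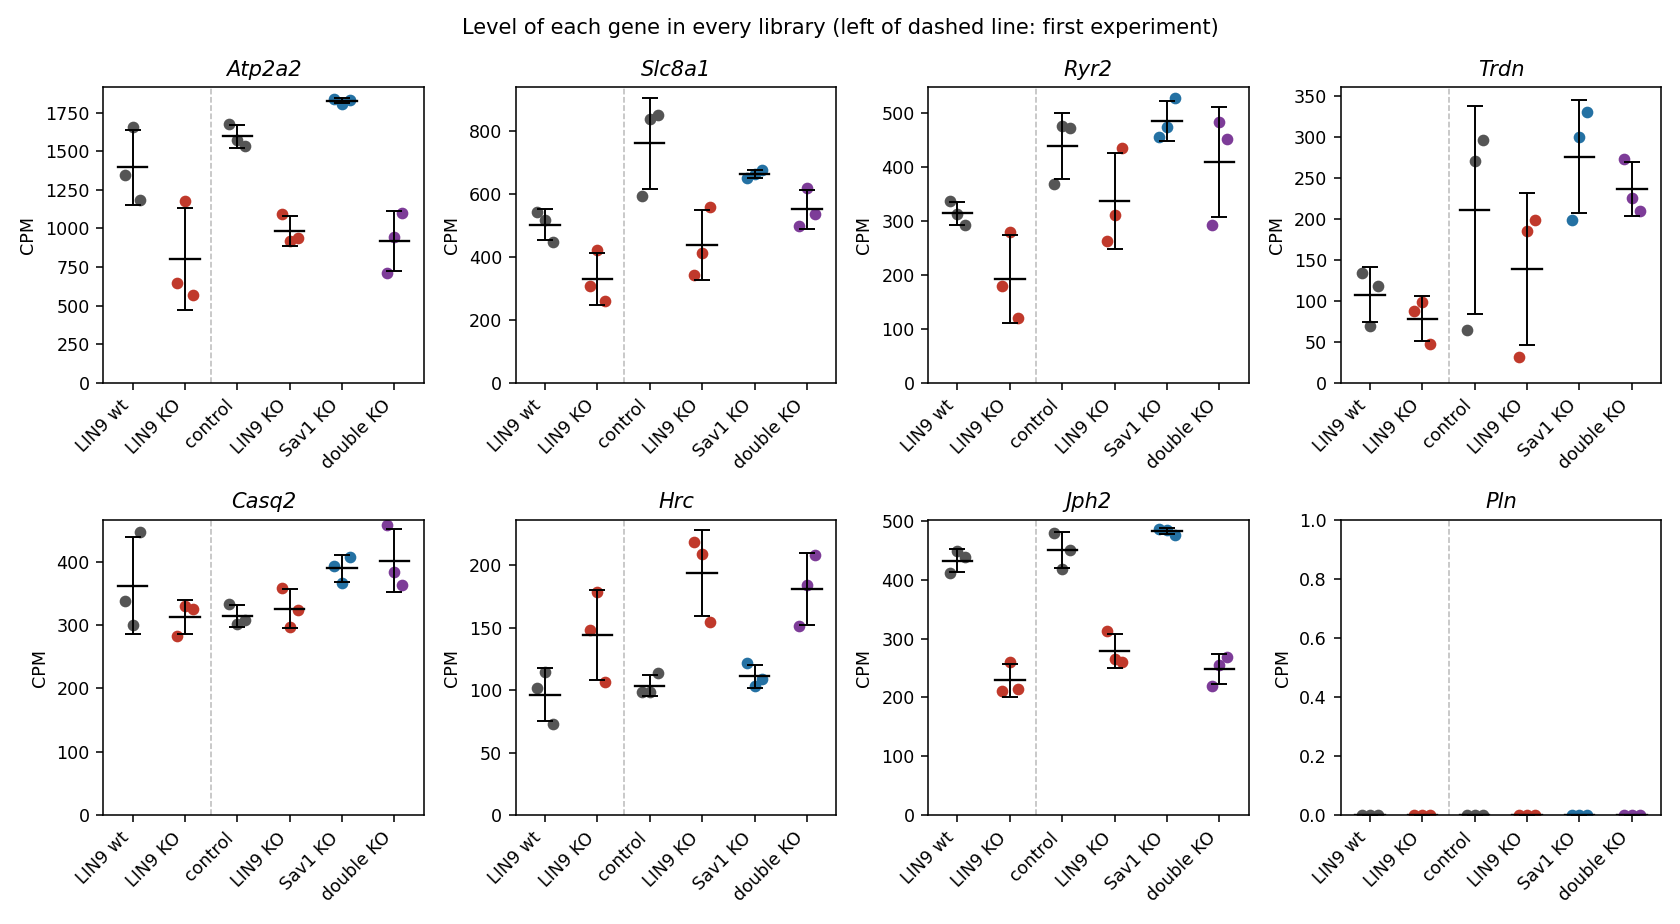
Level of each of the 8 genes in CPM (linear axis from 0) in every library, by genotype, with the first experiment left of the dashed line. Points are libraries, horizontal bars means and error bars SD (n = 3). Jph2 and Atp2a2 separate the LIN9 KO and double KO libraries of the second experiment from the others, Hrc lies higher there, and Pln is at 0 throughout.

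The first question was how loss of LIN9 affected these genes. In both experiments Jph2 and Slc8a1 were lower in LIN9 KO ventricles. Atp2a2 was lower and Hrc higher past the threshold in the second experiment, and both had fold changes of the same sign in the first. Casq2 was close to its control level. Of the 7 tested genes, 2 passed an adjusted p of 0.05 in the first experiment, where 20.9% of 19752 genes passed, and 4 passed in the second, where 23.2% of 17675 genes passed. In the first experiment 4 of the 7 genes had groups that did not overlap, as did 36.5% of all genes, and in the second 4 of 7 against 35.1%. The median log2 fold change of the 7 genes was -0.61 in each experiment, against 0.02 and 0.01 for all genes tested. The middle value was that of Slc8a1 in the first experiment and that of Trdn in the second. Trdn was not called there (edgeR adjusted p = 0.612), and its value ranged from -1.05 to -0.14 when single libraries were left out. The equal medians are therefore no measure of how well the experiments match.

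Jph2 (chr2:163336242-163397993) was at 410.6, 448.7 and 437.5 CPM in LIN9 wt and 211, 261 and 215 CPM in LIN9 KO libraries of the first experiment. In the second, controls were at 480, 418 and 451 CPM and LIN9 KO libraries at 312, 265 and 261 CPM. Every LIN9 KO library lay below every LIN9 wt library in both experiments. The log2 fold change was -0.92 (SE 0.12, adjusted p = 6.37e-05, edgeR) in the first and -0.69 (SE 0.10, adjusted p = 8.07e-06) in the second experiment, that is 0.530 and 0.621 times the control level. This call held without any single library of either experiment, with log2 fold changes of -1.02 to -0.86 and of -0.79 to -0.66.

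Slc8a1 (chr17:81373105-81738377) was at 543, 517 and 447 CPM in LIN9 wt and 308, 421 and 261 CPM in LIN9 KO ventricles of the first experiment. In the second, the control libraries were at 593, 838 and 852 CPM and the LIN9 KO libraries at 342, 412 and 559 CPM. The groups did not overlap in either experiment, although the lowest control and the highest LIN9 KO library of the second were close. The log2 fold change was -0.61 (SE 0.16, adjusted p = 0.0143) in the first and -0.80 (SE 0.17, adjusted p = 0.00452) in the second experiment. In the first experiment the call was lost without LIN9 KO replicate 1 (-0.55, adjusted p = 0.0625), without LIN9 wt replicate 1 (-0.55, 0.0711) or without LIN9 wt replicate 2 (-0.58, 0.0560), all edgeR adjusted p-values.

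Atp2a2 (chr5:122453513-122502225) was at 1346, 1657 and 1183 CPM in LIN9 wt ventricles of the first experiment, and at 649, 1180.2 and 571 CPM in LIN9 KO ventricles. In the second, controls were at 1678, 1575 and 1535 CPM and LIN9 KO libraries at 1092, 918 and 939 CPM. The second experiment separated the groups widely, while in the first LIN9 KO replicate 2 was nearly level with the lowest LIN9 wt library. The log2 fold change was -0.80 (SE 0.27, adjusted p = 0.0772) in the first and -0.70 (SE 0.12, adjusted p = 5.64e-05) in the second experiment. A fit with the replicate number as a block called Atp2a2 lower in the first experiment as well. Without LIN9 KO replicate 2 the first experiment gave -1.19 (adjusted p = 6.33e-05), and that library was the highest of its group for all 7 measured genes.

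Hrc (chr7:45335290-45338974) went the other way. It was at 102, 114 and 73.2 CPM in LIN9 wt and 148, 178 and 107 CPM in LIN9 KO ventricles of the first experiment, where the groups overlapped. In the second, controls were at 98.7, 98.7 and 113 CPM and LIN9 KO libraries at 219, 209 and 155 CPM, with no overlap. The log2 fold change was 0.58 (SE 0.21, adjusted p = 0.0968) in the first and 0.91 (SE 0.13, adjusted p = 1.09e-05) in the second experiment, a level of 1.87 times the control. The first experiment passed the threshold with DESeq2 (0.58, adjusted p = 0.0115), without LIN9 KO replicate 3 (0.76, adjusted p = 0.00799) and without LIN9 wt replicate 2 (0.72, adjusted p = 0.0489).

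Ryr2 (chr13:11553102-12106945) was at 336, 313 and 292 CPM in LIN9 wt and 179, 279 and 119 CPM in LIN9 KO ventricles of the first experiment. In the second, controls were at 368, 476 and 471 CPM and LIN9 KO libraries at 263, 310 and 434 CPM. The release channel gene had groups that did not overlap in the first experiment but did in the second. Its log2 fold change was -0.70 (SE 0.29, adjusted p = 0.155) and -0.39 (SE 0.23, adjusted p = 0.278). Same-numbered libraries of controls and LIN9 KO deviated together in the second experiment, most of all in replicate 1 (correlation 0.600). Replicates 2 and 3 correlated about as well across numbers (0.214 and 0.265), so a pairing by number is not established. An edgeR fit with the replicate number as a block called Ryr2 lower there (-0.40, adjusted p = 0.0105). Without LIN9 KO replicate 2, the first experiment gave -1.08 (adjusted p = 2.55e-04), and without LIN9 KO replicate 3 the second gave -0.65 (adjusted p = 0.0304). Other omissions brought the value closer to no change. The first experiment gave -0.45 (edgeR adjusted p = 0.0586) without LIN9 KO replicate 3. The second gave -0.25 (edgeR adjusted p = 0.506) without LIN9 KO replicate 1.

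Casq2 (chr3:102086415-102146514) was at 338, 299 and 447 CPM in LIN9 wt and 283, 331 and 326 CPM in LIN9 KO ventricles of the first experiment. In the second, the controls were at 333, 301 and 308 CPM and the LIN9 KO libraries at 358, 296 and 324 CPM. These groups overlapped in both experiments. The log2 fold changes were -0.21 (95% interval -0.51 to 0.09, adjusted p = 0.346) and 0.05 (95% interval -0.16 to 0.26, adjusted p = 0.776).

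Trdn (chr10:33080554-33476709) was at 134, 69.4 and 118 CPM in LIN9 wt and 87.9, 99.0 and 47.1 CPM in LIN9 KO ventricles of the first experiment. In the second, controls were at 64.5, 271 and 297 CPM and LIN9 KO libraries at 31.6, 185 and 198 CPM. Replicate 1 of either group stood far below the other libraries of the second experiment, none of which was under 185 CPM. The log2 fold changes were -0.46 (95% interval -1.42 to 0.50, adjusted p = 0.488) and -0.61 (95% interval -2.20 to 0.98, adjusted p = 0.612), and both intervals include changes of the size seen for Jph2. Leaving out 1 library gave fold changes of -0.69 to -0.20 in the first and of -1.05 to -0.14 in the second experiment. In the second experiment Trdn was lower in LIN9 KO than in the control of the same number in every pair, but the fit with the replicate block gave -0.63 (adjusted p = 0.539) and no call either.

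**Figure D2:**
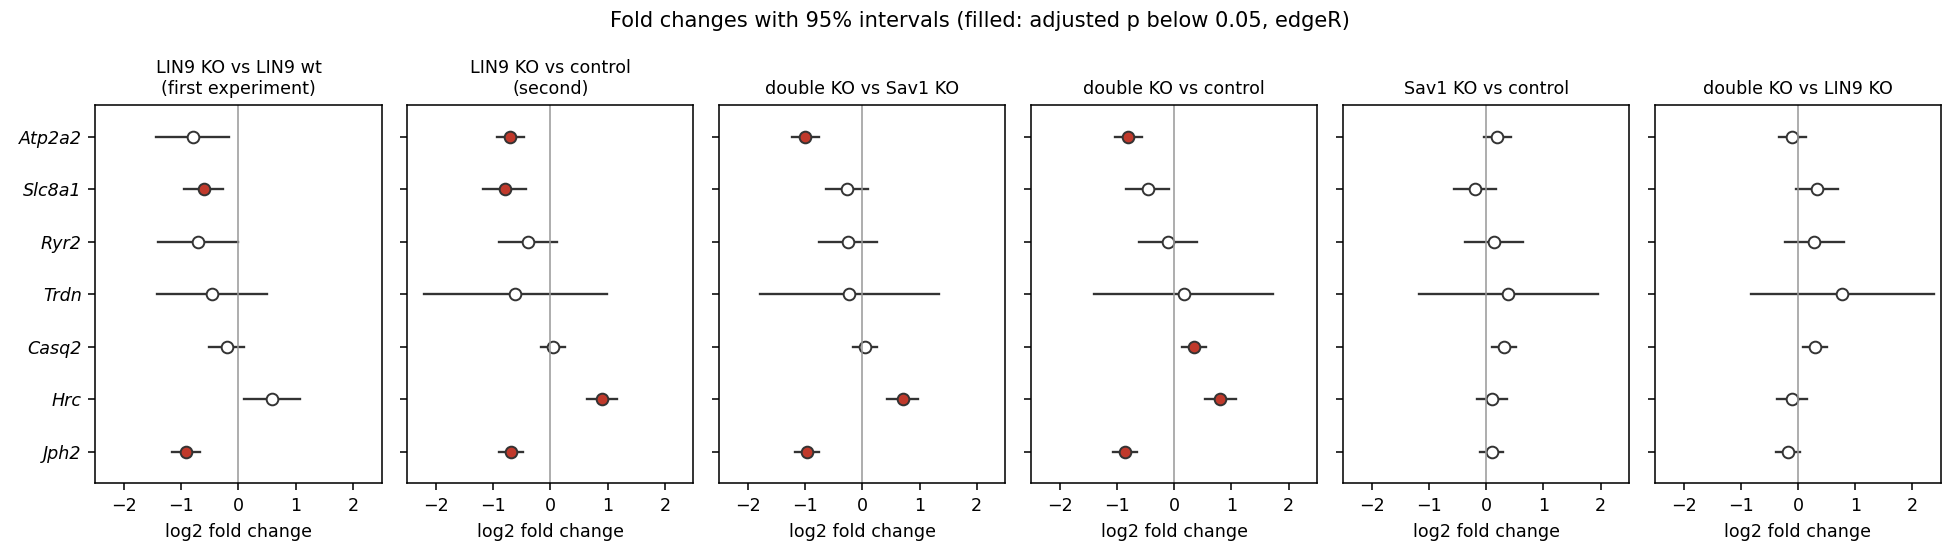
Log2 fold change of each of the 7 measured genes in 6 comparisons, with 95% intervals from edgeR. Filled points passed an adjusted p of 0.05. Jph2 is filled and below 0 in all 4 comparisons with a loss of LIN9, and no gene is filled in both Sav1 comparisons at the right.

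Ventricle RNA is a mixture of cell types, in which fewer cells of a type and less RNA per cell cannot be told apart. Cardiomyocyte markers were lower in LIN9 KO ventricles, with 5 of 8 measured markers past the threshold and none higher in each experiment. Their summed level was 17729 to 19266 CPM in LIN9 wt and 8517 to 13765 CPM in LIN9 KO libraries of the first experiment. In the second it was 20933 to 22817 in controls, 11811 to 13355 in LIN9 KO, 23824 to 24664 in Sav1 KO and 11304 to 15223 CPM in double KO libraries. Several lists of other cells were higher and others were mixed. The summed level of fibroblast and cushion markers rose from 2480 to 2678 CPM in controls to between 4258 and 5333 CPM in LIN9 KO, and 5 of 6 of them passed the test. Erythroid markers rose from between 1493 and 1839 to between 5742 and 10815 CPM, with all 5 that could be tested of 6 passing. Epicardial (4 of 5) and macrophage (4 of 6) markers were also higher in the second experiment, with 4 of 5 and 5 of 6 in the first. Endothelial markers were mixed, with 2 of 6 higher in either experiment and 1 lower in the second, and so were smooth muscle markers, with 1 of 4 higher in either and 1 lower in the second. Skeletal muscle markers, with 1 of 5 tested genes higher in the first and 2 in the second, summed to at most 63.8 CPM in any library. The list of atrial cardiomyocyte markers did not fall with the cardiomyocyte list. Whether its genes mark atrial cells in these E13.5 ventricles was not tested. Of these 6 genes 1 was higher in the first and 3 in the second experiment, with none lower, and their sum went from 3072 to 3531 CPM in controls to between 4093 and 4939 CPM in LIN9 KO. Nppa, the atrial natriuretic peptide gene, was higher in both (1.59 and 1.76 on the log2 scale), although 69.2% of its exonic bases lie under other genes. The part of these shifts in the results for the calcium genes was not tested, but the calcium genes can be set against the cardiomyocyte markers directly.

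Scaled to the 8 measured cardiomyocyte markers instead of all genes, the median of all genes moved to 0.78 and 0.79 on the log2 scale, so that 11914 of 12011 called genes were higher in the first experiment and 11306 of 11404 in the second. With scaling to all genes, these splits were 2199 of 4131 and 2254 of 4103. On the marker scale, none of the calcium genes was lower past the threshold. Jph2 was at -0.15 (adjusted p = 0.557) and 0.10 (adjusted p = 0.483), Atp2a2 at -0.10 (adjusted p = 0.733) and 0.09 (adjusted p = 0.548), and Slc8a1 at 0.13 (adjusted p = 0.618) and 0.01 (adjusted p = 0.970) in the first and second experiment. The fold changes of these 3 genes were within 0.15 of those of the markers. Hrc was higher relative to the markers, by 1.33 (adjusted p = 9.03e-08) and 1.70 (adjusted p = 9.10e-12), and so was Casq2, by 0.57 (adjusted p = 0.0244) and 0.84 (adjusted p = 7.79e-06). Against the shifted median of all genes, Casq2 lay below it in the first and close to it in the second experiment, and Hrc lay above it in both. Ryr2 was at -0.01 (adjusted p = 0.982) and 0.42 (adjusted p = 0.0214) on this scale.

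**Figure D3:**
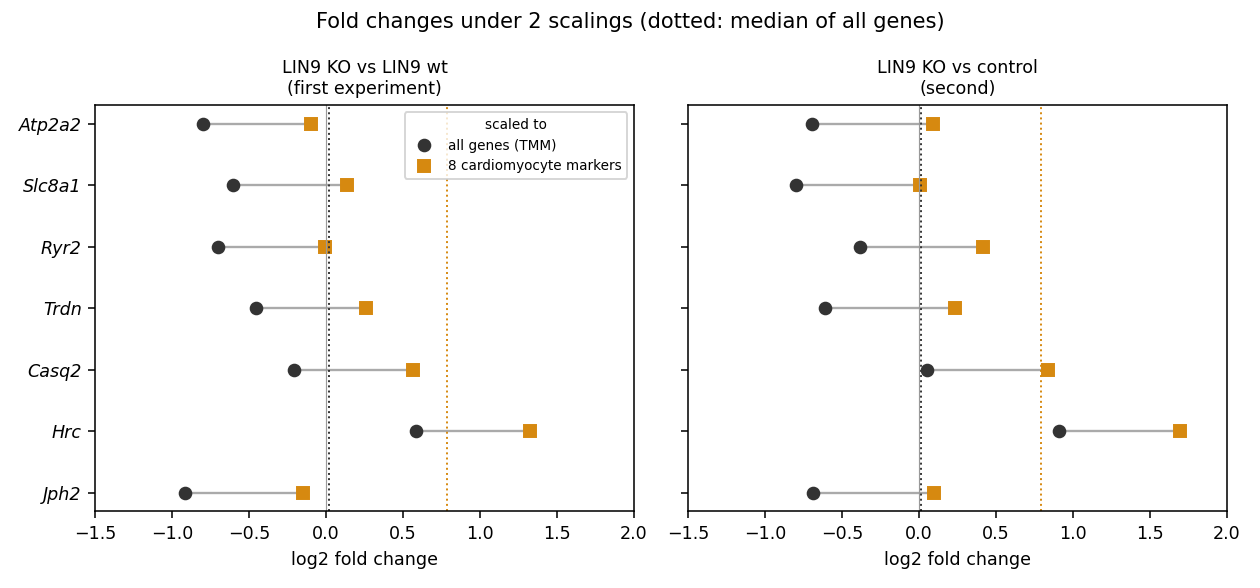
Log2 fold change in LIN9 KO ventricles of each gene, scaled to all genes (TMM, circles) or to 8 cardiomyocyte markers (squares), in the first (left) and second experiment (right). Dotted lines are the medians of all genes under each scaling. Jph2, Atp2a2 and Slc8a1 lie near 0 on the marker scale, at -0.15 to 0.13, and Hrc lies at 1.33 and 1.70.

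Libraries also differed in base composition. For each library of the second experiment, the median deviation of AT-rich genes minus that of GC-rich genes was computed on the log2 scale. It was -0.28 in control replicate 1 and -0.54 in LIN9 KO replicate 1, against -0.10 to 0.32 in the other libraries. The same 2 libraries had lower values for the longest genes than for the shortest, by -0.33 and -0.28. The transcript of Trdn has 36.77% GC, at percentile 1.0 of the genes compared, and that of Slc8a1 has 40.24%, at percentile 6.9. The transcripts of Slc8a1 and Ryr2 are among the longest, at percentiles 99.8 and 99.7. The GC content of Ryr2 is near the middle (49.57%, percentile 53.2), and Jph2 is GC-rich (61.84%, percentile 98.8). Slc8a1 and Ryr2, like Trdn, were lowest of their groups in control and LIN9 KO replicate 1. In double KO replicate 1, the library with the most positive shift, Trdn was highest of its group at 274 CPM, while Slc8a1 (498 CPM) and Ryr2 (292 CPM) were lowest. With a correction for GC content and length in each library, chosen after the data were seen, Ryr2 was called lower in LIN9 KO in both experiments, with log2 fold changes of -0.76 (adjusted p = 0.0195) and -0.45 (adjusted p = 0.00201). The calls of Jph2 (-1.001 and -0.83) and Slc8a1 (-0.63 and -0.72) remained, and Trdn was not called (-0.49 and -0.53). Without both libraries with low Trdn, its log2 fold change was -0.57 (adjusted p = 0.143).

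**Figure D4:**
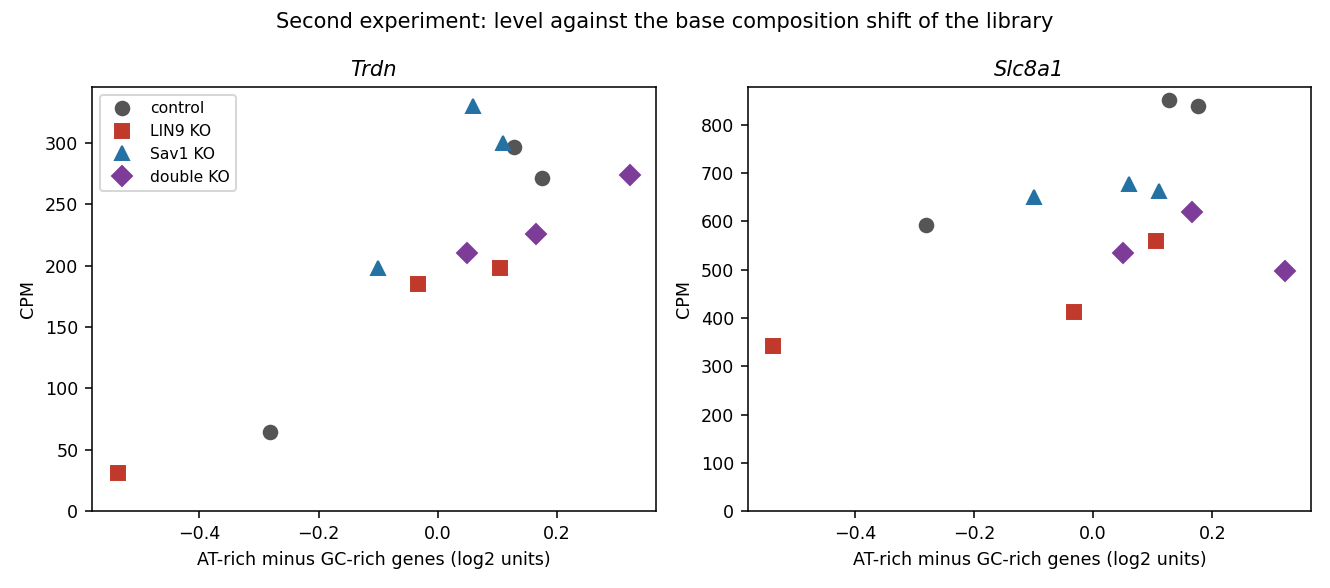
CPM of Trdn (left) and Slc8a1 (right) in the 12 libraries of the second experiment (linear axis from 0) against the base composition shift of the library, the median deviation of AT-rich minus GC-rich genes in log2 units. The 2 libraries with the most negative shift, at -0.54 and -0.28, hold the lowest Trdn levels, 31.6 and 64.5 CPM.

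The second question was whether loss of Sav1 affected these genes. In Sav1 KO against control ventricles, none of the 7 genes passed the threshold with edgeR, nor with DESeq2 (0 genes), where 0.017% of all genes passed with edgeR. At an unadjusted p below 0.05, 1 of the 7 genes stood out, against 3.92% of all genes. This was Casq2, at 393, 367 and 408 CPM in Sav1 KO, all above the controls, with a log2 fold change of 0.31 (SE 0.10, adjusted p = 0.999). Atp2a2 had groups that did not overlap as well, at 1841, 1808 and 1835 CPM in Sav1 KO (log2 fold change 0.20, 95% interval -0.04 to 0.43). Groups did not overlap for 12.1% of all genes. The intervals of Jph2 (-0.10 to 0.30), Hrc (-0.17 to 0.37) and Slc8a1 (-0.57 to 0.17) left room for changes of up to those sizes. Jph2 was at 486, 484 and 476 CPM, Slc8a1 at 650.2, 664 and 677 CPM and Ryr2 at 455, 473 and 526 CPM in Sav1 KO, values that overlapped those of controls.

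In the LIN9 KO background, double KO against LIN9 KO ventricles, none of the 7 genes passed with edgeR or DESeq2 either, with 0.0113% of all genes called by edgeR. At an unadjusted p below 0.05 there was again 1 gene, against 11.8% of all genes. Casq2 was at 457, 384 and 363 CPM in double KO ventricles, all above the LIN9 KO libraries (15.1% of all genes had groups that did not overlap), with a log2 fold change of 0.30 (SE 0.10, adjusted p = 0.220). The value in the LIN9 KO background fell to 0.19 (adjusted p = 0.552) without double KO replicate 1. Trdn was at 274, 226 and 210 CPM in double KO ventricles, above every LIN9 KO library, but its log2 fold change of 0.78 (95% interval -0.82 to 2.37, adjusted p = 0.718) was not resolved. Slc8a1, at 498, 620.2 and 535 CPM, had a log2 fold change of 0.33 (adjusted p = 0.483), which passed without LIN9 KO replicate 3 (0.54, adjusted p = 0.0304) and turned to -0.068 (adjusted p = 0.842) with the GC and length correction.

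LIN9 loss was also compared within Sav1 KO ventricles, where 23.4% of all genes passed and 3 of the 7 calcium genes did. Atp2a2 was at 710, 942 and 1102 CPM in double KO ventricles, far below Sav1 KO, with a log2 fold change of -0.99 (SE 0.12, adjusted p = 4.31e-07). Jph2 was at 219, 255 and 268 CPM, with a log2 fold change of -0.96 (SE 0.10, adjusted p = 4.95e-08). Hrc was at 151, 184 and 208 CPM, against 121, 103 and 109 CPM in Sav1 KO, a log2 fold change of 0.70 (SE 0.13, adjusted p = 2.37e-04). These 3 calls held without any single library. Slc8a1 had groups that did not overlap, as 41.1% of all genes did, with a log2 fold change of -0.27 (adjusted p = 0.304), and it was called with the GC and length correction (-0.51, adjusted p = 2.95e-04). Ryr2, at 292, 483 and 451 CPM, was at -0.25 (adjusted p = 0.500) and was called with that correction too (-0.45, adjusted p = 0.00186). On the scale of the cardiomyocyte markers Atp2a2 was at -0.24 (adjusted p = 0.0880) and Jph2 at -0.19 (adjusted p = 0.156), neither of them called. Hrc was higher there by 1.47 (adjusted p = 2.09e-10), and so were Casq2 (0.84, adjusted p = 8.03e-06), Slc8a1 (0.51, adjusted p = 0.00520) and Ryr2 (0.51, adjusted p = 0.00587). The median of all genes moved to 0.79 on that scale, and 11551 of 11651 called genes were higher. Slc8a1 and Ryr2 lay below this median, Casq2 close to it and Hrc above it.

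In double KO against control ventricles 4 of the 7 genes passed, where 20.6% of all genes did. Atp2a2 (-0.80, SE 0.12, adjusted p = 1.37e-05) and Jph2 (-0.86, SE 0.10, adjusted p = 4.02e-07) were lower, and Hrc (0.81, SE 0.13, adjusted p = 6.33e-05) was higher on the log2 scale. Casq2 was higher by 0.35 (SE 0.10, adjusted p = 0.0135), a call that was lost without double KO replicate 1 (0.21, adjusted p = 0.167), control replicate 2 (0.31, adjusted p = 0.0787) or control replicate 3 (0.34, adjusted p = 0.0573). Slc8a1 was at -0.47 (SE 0.17, adjusted p = 0.0751) and passed without double KO replicate 2 (-0.59, adjusted p = 0.0461) or control replicate 1 (-0.62, adjusted p = 0.0152), and with DESeq2 (-0.47, adjusted p = 0.0268). On the scale of the cardiomyocyte markers, where the median of all genes moved to 0.67, the calls of Atp2a2 (-0.17, adjusted p = 0.235) and Jph2 (-0.22, adjusted p = 0.114) were lost. Hrc (1.45, adjusted p = 5.05e-10), Casq2 (1.02, adjusted p = 7.35e-07) and Ryr2 (0.53, adjusted p = 0.00505) were higher on that scale, as were 10030 of 10131 called genes. Ryr2 lay below the shifted median there. Scaled to all genes, Ryr2 was at -0.10 (edgeR adjusted p = 0.809). With the GC and length correction 6 calcium genes passed, and Ryr2 and Slc8a1 were among the 4 lower ones. The number of all genes called also changed with that correction, by at most 1.5 times. This comparison shares its controls with those of LIN9 KO and of Sav1 KO.

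Whether the effect of LIN9 depended on Sav1 was tested as an interaction, the Sav1 effect in LIN9 KO minus that in LIN9 wt ventricles. None of the 7 genes and 0% of all genes passed with edgeR, and none passed with DESeq2. At an unadjusted p below 0.05 there was 1 calcium gene, against 6.54% of all genes. This was Slc8a1, with an interaction of 0.53 (95% interval 0.0038 to 1.06, adjusted p = 0.760), which fell to 0.21 (adjusted p = 0.821) with the GC and length correction. The intervals were -0.63 to 0.04 for Atp2a2, -0.56 to 0.02 for Jph2, -0.58 to 0.17 for Hrc and -0.30 to 0.29 for Casq2.

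The RNA of the exchanger gene was set against that of the pump gene within each library. The ratio of Slc8a1 to Atp2a2 counts does not depend on library scaling, and it does not measure calcium removal. The ratio was 0.403, 0.312 and 0.378 in LIN9 wt and 0.474, 0.357 and 0.457 in LIN9 KO libraries of the first experiment. In the second it was 0.353, 0.532 and 0.555 in controls, 0.314, 0.449 and 0.595 in LIN9 KO, 0.353, 0.367 and 0.369 in Sav1 KO and 0.701, 0.659 and 0.486 in double KO libraries. Every double KO library lay above every Sav1 KO library, by 0.74 on the log2 scale (two-sided exact permutation test, p = 0.1, n = 3 per group, the smallest p this design allows). In the other 5 comparisons the groups overlapped, with differences of -0.38 to 0.47 and exact permutation p-values of 0.2 to 0.7. The ratio compares libraries and not amounts of protein, and in the second experiment its lowest control and LIN9 KO values came from the 2 libraries with the most negative base composition shift. In the comparison that separated, the double KO libraries had shifts of 0.32, 0.17 and 0.05 and the Sav1 KO libraries -0.10, 0.11 and 0.06, in replicate order. The highest ratio, 0.701 in double KO replicate 1, came with the lowest Atp2a2 level of that group (710 CPM) and also its lowest Slc8a1 level (498 CPM). The part of base composition in the ratios was not tested.

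Other genes of calcium handling were examined as 6 lists with 75 genes, of which 72 could be tested in both experiments. In the comparison of LIN9 KO with LIN9 wt, 12 were higher (16.7%) and 13 lower (18.1%) in the first experiment, where 11.1% of all genes were higher and 9.78% lower. In the second 17 were higher (23.6%) and 11 lower (15.3%), where 12.8% of all genes were higher and 10.5% lower. With these, 18 genes (25%) passed in both experiments, against 14.8% of the 17656 genes tested in both. Of them 9 were higher (12.5%) and 9 lower (12.5%) in both, against 8.08% and 6.77% of all genes. In the 2 comparisons of Sav1 genotypes 0 of the 72 genes passed with edgeR. At an unadjusted p below 0.05 there were 2 (2.78%) in Sav1 KO against control and 6 (8.33%) in double KO against LIN9 KO ventricles, both below the 3.92% and 11.8% of all genes.

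Among junctophilins and proteins of the dyad and T-tubule, 5 of 10 tested genes were lower and 2 higher in the first experiment, and 4 lower and 1 higher in the second. Lower genes were thus 50% and 40% of the list, against the 9.78% and 10.5% of all genes. Tcap, a Z-disc protein that binds titin, was at -1.17 (SE 0.11) and -1.46 (SE 0.13) on the log2 scale in the first and second experiment. Cav3, the muscle caveolin, was at -1.17 (SE 0.11) and -1.15 (SE 0.14), and Speg, a kinase of the junctional membrane, at -1.04 (SE 0.12) and -0.91 (SE 0.10). Ank2, the ankyrin that anchors the exchanger and the sodium pump, was at -0.73 (SE 0.14) and -0.61 (SE 0.14). Bin1, a membrane-bending protein of T-tubules, was higher by 0.72 (SE 0.13) and 0.75 (SE 0.17). The median of this list was -0.32 and -0.37, against medians of 0.02 and 0.01 for all genes.

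Among release channels and their partners, 2 of 20 were higher and 3 lower in the first experiment, and 4 higher and 3 lower in the second, with list medians of 0.03 and 0.23. These calls make up 25% and 35% of the list, against 20.9% and 23.2% of all genes, so that the first is near the background. Ryr1, the skeletal muscle ryanodine receptor, was higher by 1.06 (SE 0.33) and 2.23 (SE 0.55), from a low level of 0.794 to 3.88 CPM in the second experiment. Itpr3, an inositol trisphosphate receptor of non-muscle cells, was higher by 0.79 (SE 0.13) and 0.91 (SE 0.18). Camk2d, the main cardiac calmodulin kinase, was lower (-0.61, SE 0.14, and -0.54, SE 0.12), as was its relative Camk2g (-0.43, SE 0.10, and -0.38, SE 0.10). Sypl2, mitsugumin 29 of the triad, was at -0.90 (SE 0.16) and -0.69 (SE 0.25).

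Of the pumps and their regulators, 1 of 11 was higher and 2 were lower in the first experiment, and 2 higher and 1 lower in the second (list medians -0.17 and 0.02). The share called was 27.3% in each, near the 20.9% and 23.2% of all genes. Atp2a3, the SERCA3 pump of non-muscle cells, was higher by 0.75 (SE 0.19) and 1.203 (SE 0.26), although at 13.8 CPM in LIN9 KO ventricles it remained far below Atp2a2 at 983 CPM. Ppp1r1a, an inhibitor of the phosphatase that acts on phospholamban, was lower, at -1.22 (SE 0.11) and -1.35 (SE 0.15). General calcium-binding chaperones of the endoplasmic reticulum were higher in 5 of 9 and 3 of 9 cases and lower in none, with list medians of 0.44 and 0.23. The higher shares were 55.6% and 33.3%, against 11.1% and 12.8% of all genes. Calr was higher by 0.49 (SE 0.15) and 0.36 (SE 0.11), Rcn1 by 0.52 (SE 0.11) and 0.45 (SE 0.10) and Calu by 0.44 (SE 0.12) and 0.43 (SE 0.10). Of the mitochondrial genes, 2 of 8 were higher and 1 lower in the first experiment and 4 higher and 2 lower in the second (list medians 0.10 and 0.02). This is 37.5% and 75% of a short list called in either direction, against 20.9% and 23.2% of all genes. Mcu, the pore of the calcium uniporter, was higher by 0.62 (SE 0.11) and 0.53 (SE 0.13), and Mcub, its inhibitory partner, by 1.29 (SE 0.26) and 1.72 (SE 0.51) from under 2 CPM. Letm1, an inner membrane ion exchange protein, was lower (-0.59, SE 0.15, and -0.96, SE 0.12). Plasma membrane entry and exchange had 2 of 14 genes lower in the first experiment and 3 higher and 1 lower in the second, and none passed in both (list medians 0.12 and 0.24). The share called there, 14.3% and 28.6%, was near that of all genes. On the marker scale described above, every median of all genes in LIN9 KO ventricles moves up by about 0.8, so a lower call of these genes is one relative to all ventricle RNA. The wider genes were not tested on that scale. Tcap, Ppp1r1a, Cav3 and Speg had lower fold changes in both experiments than the medians of the cardiomyocyte list, -0.76 and -0.74. Ank2, Camk2d and Camk2g fell less than those medians in both, and Sypl2 and Letm1 differed between the experiments.

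**Figure D5:**
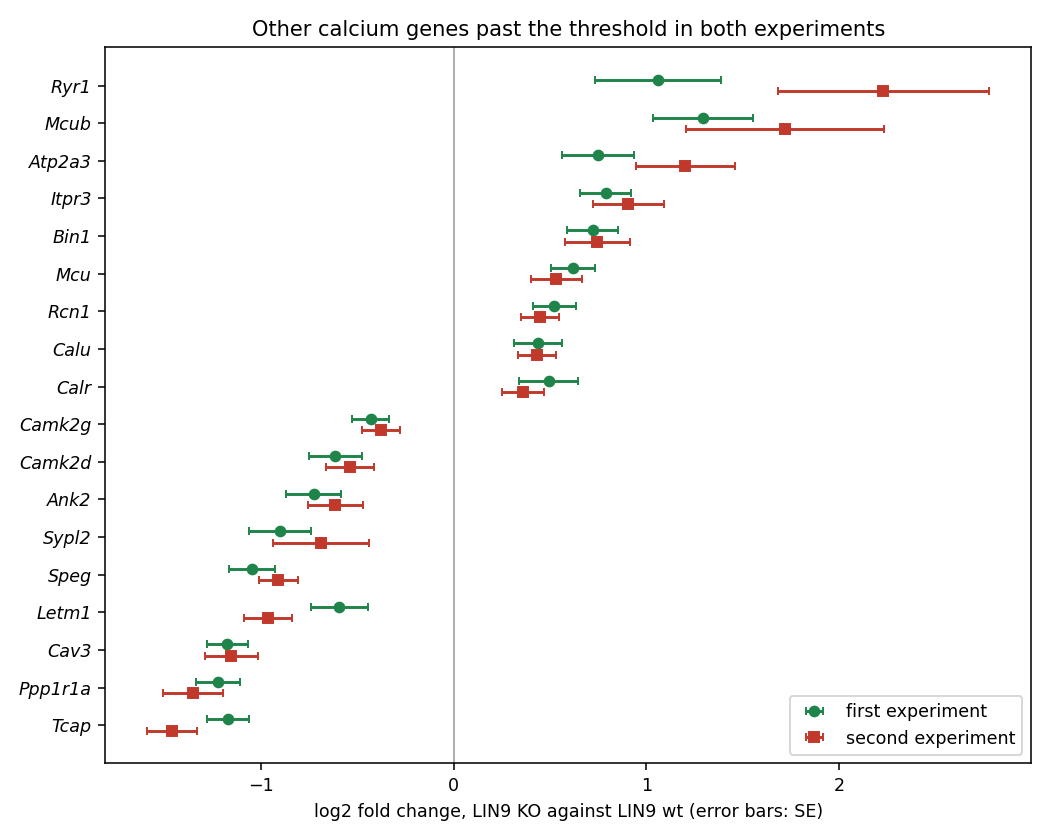
Log2 fold change in LIN9 KO against LIN9 wt ventricles (error bars SE) of the 18 other calcium handling genes that passed an adjusted p of 0.05 in both experiments, the first as circles and the second as squares. Ryr1 and Mcub lie furthest to the right, and Tcap, Ppp1r1a and Cav3 furthest to the left, all at -1.15 or lower.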

How the data were processed

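Read counts per gene were analysed for 18 ventricle RNA-seq libraries; 4 ChIP-seq samples were not analysed here. To make the counts, the authors mapped poly(A) RNA reads with TopHat2 2.1.0 and BOWTIE2 to mm10, normalized samples to the one with the fewest mappable reads, by a step not described further, and counted with summarizeOverlaps. The deposited counts are whole numbers with nearly equal totals within each experiment, and no other normalization is described (overlap mode and strand setting are not given in the sources used here). Deposited tables of the authors' fold changes and p-values were not used. All columns of per-sample values were used (0 left over), and 4 repeated identifiers per table were dropped. Positions and exonic lengths are from GENCODE M21 on GRCm38, the same build.

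Genes with a mean count above 1 were compared by the quasi-likelihood F test of edgeR (4.0.16 under R 4.3.3, TMM, robust), 6 libraries in the first fit and all 12 of the second experiment in 1 fit with contrasts of group means. P-values were adjusted over all genes tested (Benjamini-Hochberg, 0.05), and intervals are 95%. The script was tested on simulated data. The member genes, lists and tests were chosen with earlier results of these data known. Named genes of the wider lists are those past the threshold in both LIN9 KO comparisons. Alternatives were DESeq2 (1.42.0), RLE size factors, library totals, other filters on low counts (none, mean above 10), the replicate block, scaling to cardiomyocyte markers, GC and length correction, fits on 6 libraries and leaving out libraries. Deviations from group means of same-numbered libraries correlated at 0.217 to 0.600 between controls and LIN9 KO of the second experiment. This was the only pair of groups in which every same-number correlation exceeded 0.1. Replicates 2 and 3 of these groups also correlated across numbers, at 0.214 and 0.265. The pairing comes from the values alone, and only replicate 1 was tied to its number. Log2 values for the comparison of patterns used a prior count of 2.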

Additional observations from a re-analysis of the deposited data

How the results depend on the processing

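Jph2, and in the second experiment Atp2a2 and Hrc, kept their direction and call in the comparisons with a loss of LIN9 under every alternative except scaling to the cardiomyocyte markers, which ended the calls of Jph2 and Atp2a2 and kept that of Hrc. That scaling moved the number of genes called to 12011 in the first experiment, 11404 for LIN9 KO against control, 11651 for LIN9 loss in Sav1 KO and 10131 for double KO against control, through its shift of the median of all genes. It turned the log2 fold changes in the first experiment for Casq2 (0.57), Slc8a1 (0.13) and Trdn (0.26). For LIN9 KO against control it turned Ryr2 (0.42), Atp2a2 (0.086), Slc8a1 (0.0067), Jph2 (0.097) and Trdn (0.23). For LIN9 loss in Sav1 KO it turned Ryr2 (0.51), Slc8a1 (0.51) and Trdn (0.58), for double KO against control Ryr2 (0.53) and Slc8a1 (0.19), and for Sav1 KO against control Hrc (-0.022) and Jph2 (-0.029).

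The correction for GC content and length called 5 calcium genes for LIN9 loss in Sav1 KO, and 5 with the replicate block added. The number of all genes called stayed within 1.5 times of 4132 there. In the first experiment 4 were called with the replicate block, namely Jph2, Slc8a1 and Atp2a2 lower and Hrc higher. The block also raised the number of all genes called there from 4131 to 5001, of 19752 tested. With block and correction 5 calcium genes were called in that experiment, and 5657 genes in all. The block changed no other count of calcium genes by over 1.5 times, and in the first experiment the samples share only a number (correlations 0.042 to 0.181). For double KO against control the block called Slc8a1 (-0.45). In the LIN9 KO background the correction turned the Sav1 effect on Slc8a1 to -0.068 (-0.056 with the block). The cause was not tested. Without both libraries with low Trdn, chosen after seeing the data, the log2 fold change of Trdn turned to -0.038 in Sav1 KO and to -0.26 in double KO against control.

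The genes called for Sav1 KO against control were 22 with no filter on low counts, 5 with the correction, 22 with correction and replicate block, 31 in a fit on 6 libraries and 15 without both libraries with low Trdn. For the Sav1 effect in LIN9 KO they were 46 with DESeq2, 309 with no filter, 0 with a mean count above 10, 84 with the replicate block, 18 with the correction, 201 with both, 0 in a fit on 6 libraries and 34 without both libraries. For the interaction they were 17 with no filter and 4 without both libraries. Interactions near 0 changed sign, for Ryr2 to -0.0012 with the correction and -0.0018 with block and correction. For Casq2 the interaction turned to 0.0037 (RLE), 0.0038 (DESeq2), 0.0074 (mean count above 10), 0.0060 (marker scaling), 0.0048 (library total) and 0.023 (without both libraries).

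Leaving out 1 library at a time gave 1 to 4 calcium genes called in the first experiment, 4 to 5 for LIN9 KO against control, 0 to 1 for the Sav1 effect in LIN9 KO and 3 to 5 for double KO against control. Genes called in all ranged from 2722 to 4223 in the first experiment, from 0 to 2 for Sav1 KO, from 0 to 378 for the Sav1 effect in LIN9 KO (378 without LIN9 KO replicate 3) and from 0 to 64 for the interaction (64 without the same library). Log2 fold changes that changed sign ranged from -0.036 to 0.084 (Casq2, LIN9 KO against control), from -0.038 to 0.72 (Trdn, Sav1 KO), from -0.25 to 0.046 (Atp2a2) and -0.25 to 0.0045 (Hrc) for the Sav1 effect in LIN9 KO, and from -0.090 to 0.094 (Casq2, LIN9 loss in Sav1 KO). For double KO against control the range was -0.27 to 0.051 for Ryr2 and -0.26 to 0.497 for Trdn, and for the interaction -0.11 to 0.080 for Casq2 and -0.080 to 0.83 for Trdn. The log2 ratio of Slc8a1 to Atp2a2 for LIN9 KO against control, -0.11, ranged from -0.33 to 0.13 (0.13 without LIN9 KO replicate 1). A pseudocount of 0.5 and the replicate block (exact sign-flip test) left the direction of all 6 of these ratios as it was. The planned ratio of Pln to Atp2a2 could not be computed, since Pln is at 0 throughout. The smaller totals of the second experiment limit what can be resolved for genes of few counts, and 3 libraries per group limit every interval.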

Other observations

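The genes whose pattern over the 18 libraries was most like that of each calcium gene were found by the root mean square difference of log2 CPM, centred within each experiment, among 12111 genes with a mean of at least 5 CPM. These values are a description and carry no statement on shared control. Jph2 was closest to Gbas (0.0818) and Crip2 (0.0852), a LIM domain protein, both small against the spread of Jph2 itself (0.445). Atp2a2 was closest to Kdr (0.126), the VEGF receptor of endothelial cells, and to Actn2 (0.141), the sarcomeric alpha-actinin. Slc8a1 (0.107) and Ryr2 (0.156) were both closest to Ank2, and their second neighbours were Ptprk (0.134) and Crybg3 (0.165). Hrc was closest to P3h1 (0.119), a collagen-modifying enzyme, and Ctsd (0.130), the lysosomal protease cathepsin D. P3h1 was higher in LIN9 KO ventricles by 0.69 (adjusted p = 0.00181) and 0.83 (adjusted p = 3.60e-06, both edgeR), and Ctsd by 0.53 and 0.80 on the log2 scale. Casq2, which varied least (0.192), was closest to Sar1b (0.138) and Agap3 (0.141), and Trdn, which varied most (0.835), to Zfp946 (0.180) and Ccdc88a (0.195).

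Among the calcium genes themselves, Atp2a2 and Jph2 were the closest pair (0.169), followed by Ryr2 and Slc8a1 (0.192). Hrc and Trdn were furthest apart (1.04).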
